A study of Mus musculus with 4 samples.

Results

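Genes that regulate the oocyte and genes whose products the oocyte stores for the early embryo were read in ovarian tumors from the ERα d/d line and in ovaries from ERα f/f controls. The set holds 35 genes, chosen for what they are known to do in oocytes and found by gene symbol in the probe annotation of the array. Earlier results of these data were known when the genes were chosen, so the shares of all genes set beside their counts are a description. Of these, 30 had a probe set of their own. Oas1d and Oog1 were named only on probe sets shared with other genes, and Nlrp2, Npm2 and Slbp2 had no probe set in the annotation, so these 5 were not analysed here. Where a gene had several probe sets, the brightest by mean log2 signal over the arrays was used. Of the 30, 24 exceeded the median signal of an array on 2 or more of the 4 arrays and were tested among 11740 genes. The other 6, Figla, Sohlh1, Sohlh2, Kpna7, Ddx4 and Ybx2, were under the median on every array, between 0.945 and 25.7, and no fold is given for them.

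There were 4 arrays, each of RNA pooled from 3 female C57BL/6 mice. The controls were ovaries of ERα f/f mice, in which the estrogen receptor alpha gene (Esr1) is floxed and no Cre is present, at 5 and at 10 months of age. The others were ovarian tumors of ERα d/d mice, which carry the same floxed alleles and a Cre recombinase knocked into 1 progesterone receptor allele, at 5 and at 10 months. Cre is therefore made where the progesterone receptor gene is active, which includes the pituitary, uterus, oviduct and corpora lutea. The ages are those of the sample titles. A second label field gives 5 months for both ovary pools and 10 months for both tumor pools, and by that field age and genotype could not be told apart. What is called the 5-month and the 10-month tumor pool below is so by its title.

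An oocyte enters its growth phase under a set of transcription factors, among them FIGLA, NOBOX, SOHLH1, SOHLH2 and LHX8. While it grows, it makes and stores RNAs and proteins that carry the embryo through its first divisions, before the embryo's own genes are active. The mothers' genes for these products are called maternal-effect genes, since embryos of mothers that lack them stop early. Several of their proteins, those of Nlrp5, Ooep, Tle6 and Khdc3 among them, form the subcortical maternal complex under the oocyte's membrane. Each follicle has a single oocyte, so in RNA of a whole ovary these transcripts come from few cells. In such bulk RNA, fewer oocytes, less RNA per oocyte and more RNA from other cells cannot be told apart.

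Signals were MAS5 intensities on a linear scale, on arrays that the authors had scaled to the same mean, so that a difference is relative to the rest of an array. Median signals were 39.6 (5 months) and 35.3 (10 months) for ovaries, and 34.6 and 37.5 for tumors. Female tissue has no Y chromosome, and probe sets for its genes reached 34.3 at most, so signals at or under the median are treated as dim and a fold against them as a bound. The signal of Esr1, the floxed gene, was 431 and 697 in tumors, against 2232 and 2492 in control ovaries (log2 fold change -2.10, adjusted p = 0.0421 by limma). By immunostaining, the paper found the receptor lost from the anterior pituitary of ERα d/d mice. In their ovaries it still saw staining in surface epithelium, theca and tumor. Pgr, the progesterone receptor gene, was also lower in tumors, at 58.0 and a dim 21.8 against 699 and 937. Whether the lower Esr1 signal came from deletion of the gene in the tumors was not tested. The tumor arrays differed from each other by at least 2-fold in 869 genes and the ovary arrays in 107. The ratio of 3′ to 5′ signal of the Gapdh control, which is higher in shortened RNA, was 1.09 to 1.13 on 3 arrays and 1.41 on the 10-month tumor array. For actin it was 2.33 to 2.52 and 2.96. The part of RNA quality in the results below was not tested.

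The first comparison was that of tumors with ovaries over both ages. By limma, 2 arrays against 2, 0 of the 24 oocyte genes were lower in tumors and 0 were higher by an adjusted p under 0.05, where 1.06% of all genes tested were lower and 0.716% higher. At an unadjusted p under 0.05 there was 1 such gene, Ooep, with 2175 of the 11740 genes, and the adjusted p-values ran from 0.227 to 0.920. The median log2 fold change of the 24 genes was -0.61, against -0.02 for all genes tested, and -0.25 with dim signals raised to the median of their array. Their standard errors were wide, with a median of 0.77 on the log2 scale against 0.17 for all genes. Taken by age, the median log2 fold was 0.14 at 5 months and -1.53 at 10 months, or -0.56 at 10 months with dim signals raised to the median of their array. For all genes tested, these medians were -0.02 and -0.02.

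In the 5-month tumors the oocyte genes were near their ovarian levels. Their signals were 0.835 to 2.01 times those of the 5-month ovaries, and 23 of 24 were within 2-fold. For 15 genes the 5-month tumor signal was above both ovaries, for 6 it was between them and for 3 below both. The shares of all genes in these orders were not taken. No gene was at least 2-fold lower than in the ovary at 5 months, where 5.94% of all genes tested were, and the gene at least 2-fold higher, as were 2.59% of all genes, was Taf4b. At 10 months, 17 of the 24 were at least 2-fold lower in the tumor than in the ovary, against 5.98% of all genes tested. For 8 of these 17 genes the 10-month tumor signal was so dim that a 2-fold difference was not measured. With dim signals raised to the median of their array, 9 of 24 were at least 2-fold lower, against 4.05% of all genes tested. These 9 were Padi6, Nlrp14, Nlrp5, Dppa3, Zar1, Btg4, Gtsf1, Tcl1 and Bcl2l10. At both ages it was 0 of 24, against 3.40%. Each of these folds compares 1 array with 1 and has no test.

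**Figure D1:**
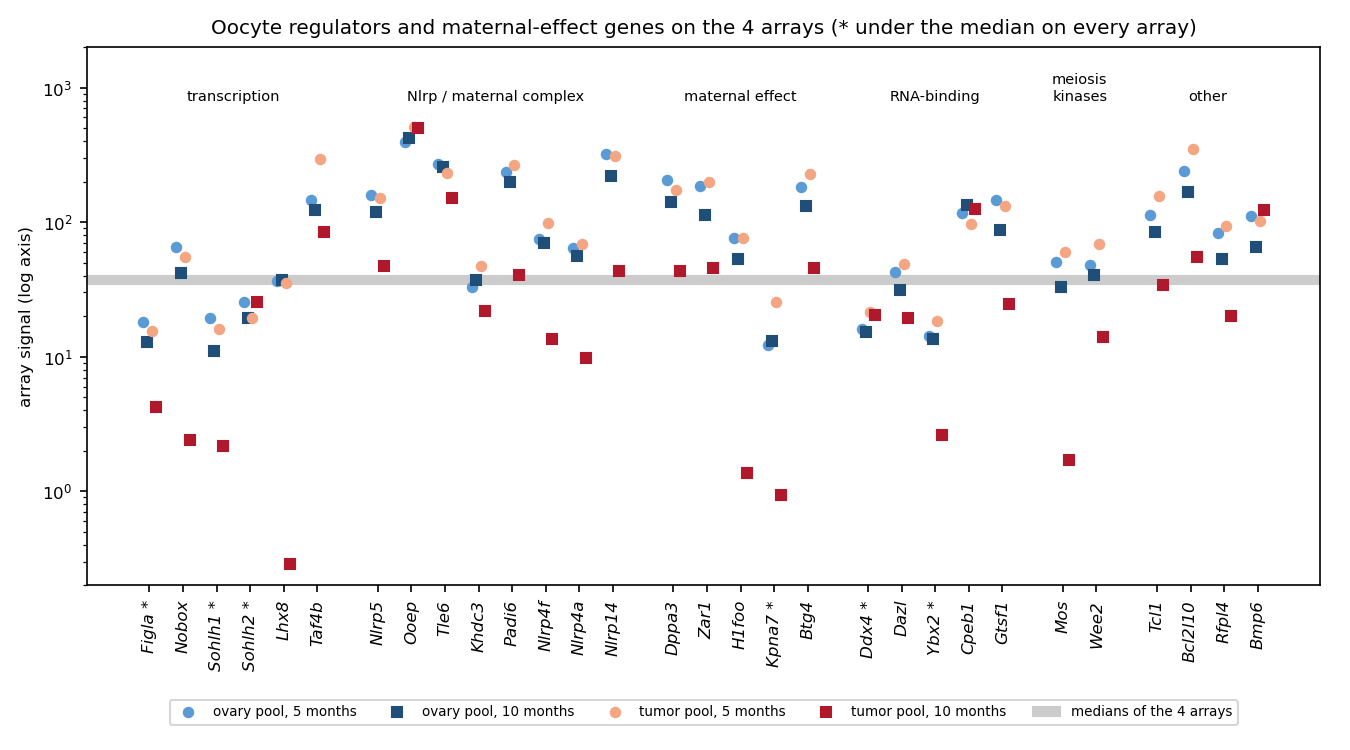
Signal (log axis) of the 30 oocyte genes on the 4 arrays, grouped by role, with circles for 5 months, squares for 10 months, blue for ERα f/f ovaries and red for ERα d/d tumors; the grey band spans the medians of the arrays, 34.6 to 39.6. The 10-month tumor pool is below the other 3 arrays for 21 of the 24 genes tested, and the 5-month tumor pool is among or above the ovaries for most. The shares of all genes in these orders were not taken.

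The tumor pools therefore stood apart from each other in these genes. Of the 24 genes, 20 were at least 2-fold lower in the 10-month than in the 5-month tumor pool, where 3.39% of all genes tested were. A gene that passes the filter by its signal on the other arrays has room only to be lower, so this count was also taken in other ways. Over all 30 genes, with dim signals raised to the median of their array, 13 were at least 2-fold lower, against 1.47% of all named genes. Among genes above the median on both ovary arrays and on the 5-month tumor array, it was 13 of 20, against 2.30% of all such genes. Of such genes with a 5-month tumor signal in the range of these 20, from 55.0 to 506, it was 2.57%. This choice does not use the 10-month tumor. It still takes genes in through arrays where they are bright, so it does not remove that one-sided room, and the count is a description only. Between the ovary pools, 0 of 24 genes were at least 2-fold lower at 10 months, where 0.545% of all genes tested were. The 10-month ovary was nonetheless the lower of the ovaries for 20 of the 24 genes, which as a set were at 0.589 to 1.14 times the 5-month signal. The median log2 fold of the 24 genes between the ovary pools was -0.43, against 0.0015 for all genes tested.

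The comparison with the ovaries was also fitted with 1 tumor pool left out. Without the 5-month tumor pool, 16 of the 20 oocyte genes that passed the filter were lower than the ovaries at an adjusted p under 0.05, against 11.8% of all genes. This count is a description only, since 8 of the 16 were dim in the 10-month tumors and passed the filter only through the ovaries, where they were brighter. The median log2 fold change of these 20 oocyte genes in this fit was -1.75. Without the 10-month tumor pool, 0 of 24 were lower and 2, Taf4b and Bcl2l10, were higher, where 6.14% of all genes were higher. These p-values rest on the spread between the 2 ovary pools, and the lone tumor pool is assumed to vary as they do. The counts without the 10-month tumor pool are therefore a description only. No share of all genes was set beside the 0 lower, so that count does not set the oocyte genes apart.

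**Figure D2:**
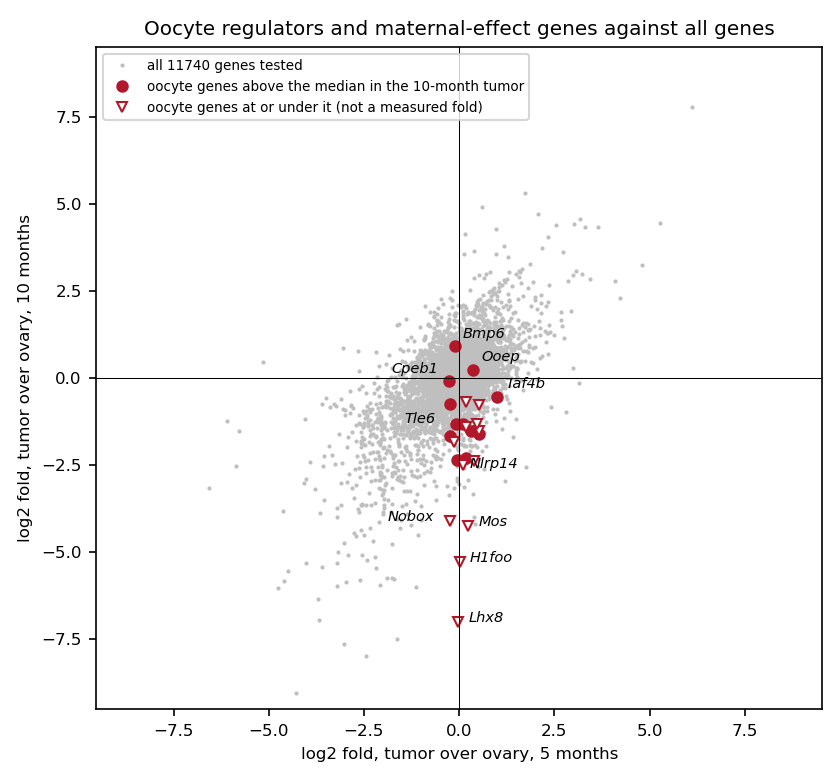
Log2 fold, tumor over ovary, with the 5-month fold on the x axis and the 10-month fold on the y axis, for all 11740 genes tested (grey) and the 24 oocyte genes (red; open triangles are genes at or under the median in the 10-month tumor, whose fold is not measured). The oocyte genes lie close to 0 along the x axis and, apart from Bmp6 and Ooep, below 0 on the y axis.

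Among the transcription regulators, Nobox encodes a homeobox factor needed for follicles to leave the primordial stage. Its signals were 65.0 and 41.6 in control ovaries at 5 and 10 months, 55.0 in the 5-month tumors and 2.41 in the 10-month tumors. Both ovary pools and the 5-month tumor pool were above their array's median and the 10-month tumor pool was dim, which makes the 10-month tumor at least 1.47-fold lower than the 5-month tumor. Lhx8 encodes a LIM homeobox factor of early oocytes and was close to the median where it was brightest, at 36.3, 37.1 and 35.5, with 0.288 in the 10-month tumors. Figla and Sohlh1, which encode basic helix-loop-helix factors of the primordial follicle, were dim throughout. Their 10-month tumor signals, 4.25 and 2.18, were their lowest. Sohlh2 was dim too, with its highest signal, 25.7, in the 10-month tumors.

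Taf4b encodes a TFIID subunit abundant in the gonads and also made in granulosa cells. Its fold over the ovary at 5 months was the largest of the oocyte genes tested. Other oocyte genes, Bcl2l10 among them, also had the 5-month tumor above both ovaries and the 10-month tumor below both. Its signals were 146 and 123 in control ovaries, 293 in the 5-month tumors and 84.8 in the 10-month tumors. The 5-month tumor was 2.01-fold above its ovary and the 10-month tumor was 0.692 times its ovary, so that the pools of tumor lay on both sides of the ovaries (log2 fold change 0.24, standard error 0.59, adjusted p = 0.871). Another probe set of the gene had 113 and 115 in control ovaries and 145 and 66.0 in the tumors, with the 5-month tumor highest and the 10-month tumor lowest here too. Without the 10-month tumor pool, with 1 tumor array left, the log2 fold change of Taf4b was 1.13.

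The Nlrp genes encode NACHT and leucine-rich repeat proteins of the oocyte. Nlrp14 had signals of 323 and 221 in control ovaries, 309 in the 5-month tumors and 43.5 in the 10-month tumors, 7.12-fold apart between the tumor pools. Nlrp5, the maternal-effect gene of the protein MATER, had 158 and 118 in control ovaries against 150.1 and 47.6 in the tumors, 3.16-fold apart. In both, the 5-month tumor was between the ovaries and the 10-month tumor was below them. Nlrp4f had 75.4 and 69.8 in control ovaries and 98.0 in the 5-month tumors, and at 13.5 it was dim in the 10-month tumors, at least 2.61-fold lower. Nlrp4a, a relative in the same family, had 64.3, 56.1 and 68.9 and then 9.83, at least 1.84-fold lower.

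The genes of the subcortical maternal complex and Padi6 differed among themselves. Padi6, which encodes a deiminase-family protein of the oocyte's cytoplasmic lattices, had signals of 236 and 200.0 in control ovaries, 266 in the 5-month tumors and 40.5 in the 10-month tumors. The tumor pools were 6.55-fold apart. With all 4 arrays the log2 fold change of Padi6 was -1.07 (standard error 0.88, adjusted p = 0.580 by limma). Without the 5-month tumor pool, with 1 tumor array left, it was -2.42. Tle6, a co-repressor relative that is part of the complex, had 272 and 255 in control ovaries against 230.2 and 151 in the tumors, 1.52-fold apart. Both tumor pools were below both ovaries (log2 fold change -0.50, standard error 0.23, adjusted p = 0.336). Without the 5-month tumor pool, with 1 tumor array left, the log2 fold change of Tle6 was -0.80.

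Ooep, which encodes FLOPED, a KH-domain protein of the complex, had signals of 394 and 422 in control ovaries and 506 and 499 in the tumors. Both tumor pools were above both ovaries, the tumor pools were 1.01-fold apart, and the difference from the ovaries was small (log2 fold change 0.30, standard error 0.11, adjusted p = 0.227). Ooep is thus the gene of the complex whose 10-month tumor signal was not below the ovaries. It has a single probe set, and whether this probe set also reads another transcript was not tested. Khdc3, the gene of FILIA, was near the median, with 33.1 and 37.2 in control ovaries, 47.4 in the 5-month tumors and 21.9 in the 10-month tumors, at least 1.26-fold lower.

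Other maternal-effect genes were lowest in the 10-month tumors too. Dppa3, the gene of the chromatin factor STELLA, which guards the maternal genome's methylation in the zygote, had signals of 205 and 140.1 in control ovaries, 174 in the 5-month tumors and 43.7 in the 10-month tumors, 3.97-fold apart between the tumors. Zar1, an RNA-binding factor of the oocyte-to-embryo transition, had 185 and 113 in control ovaries against 198 and 45.6, 4.33-fold apart. Btg4, an adaptor that directs removal of maternal mRNA, had 184 and 132 in control ovaries against 229 and 45.8, 4.99-fold apart. In each the 10-month tumor was the lowest of the 4 arrays and yet above its array's median. H1foo, the oocyte's linker histone (H1f8 in current annotation), had 75.9 and 53.4 in control ovaries and 76.3 in the 5-month tumors, and at 1.36 it was dim in the 10-month tumors, at least 2.03-fold lower. Kpna7, an importin of oocytes, was dim on each array, with 25.5 in the 5-month tumors and 0.945 in the 10-month tumors.

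The genes for RNA-binding proteins differed among themselves. Gtsf1, a factor of the piRNA pathway, had signals of 146 and 87.7 in control ovaries, 131 in the 5-month tumors and 24.6 in the 10-month tumors, at least 3.50-fold lower. Dazl, a translational regulator of germ cells, had 42.9 and 31.5 in control ovaries against 48.5 and 19.3 in the tumors, with both 10-month signals dim. Cpeb1, which controls the polyadenylation of stored mRNAs in oocytes and is also made in other tissues, had 116 and 133 in control ovaries and 97.0 and 125 in the tumors. Its tumor signals overlapped its ovary signals (log2 fold change -0.18, standard error 0.20, adjusted p = 0.688). Ddx4 and Ybx2, a helicase and a cold-shock-domain protein of germ cells, were dim throughout. Ddx4 stood at 16.1 and 15.4 in control ovaries and 21.3 and 20.5 in the tumors, and Ybx2 at 14.2 and 13.7 against 18.5 and 2.61.

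Of the kinases that hold and release meiosis, Mos, which keeps the mature egg arrested, had signals of 50.9 and 32.9 in control ovaries, 60.2 in the 5-month tumors and 1.71 in the 10-month tumors, at least 1.60-fold lower. Wee2, the oocyte's inhibitor of the cell cycle kinase CDK1, had 47.8, 40.1 and 69.2 and then 13.9, at least 1.84-fold lower. Both were dim in the 10-month tumors.

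Bcl2l10, a BCL2 relative abundant in oocytes, had signals of 241 and 168 in control ovaries, 347 in the 5-month tumors and 54.6 in the 10-month tumors, 6.35-fold apart between the tumors. With all 4 arrays its log2 fold change was -0.55 (standard error 0.87, adjusted p = 0.785 by limma). With 1 tumor array left, the log2 fold change was 0.79 without the 10-month tumor pool and -1.88 without the 5-month tumor pool. Tcl1, an AKT co-activator of oocytes and early embryos, had 113 and 85.1 in control ovaries and 157 in the 5-month tumors, and at 34.1 it was dim in the 10-month tumors, at least 4.17-fold lower. Rfpl4, which encodes a RING finger protein of oocytes, had 82.7, 53.4 and 93.1 and then 20.1, at least 2.48-fold lower. Bmp6, a secreted factor that oocytes and also other cells make, had 110.3 and 65.0 in control ovaries and 101 and 122 in the tumors. The 10-month tumor signal of Bmp6 was the highest of the 4 arrays (log2 fold change 0.40, standard error 0.31, adjusted p = 0.559). Leaving out 1 ovary pool moved its log2 fold change to 0.78 (without 5 months) or 0.0129 (without 10 months).

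**Figure D3:**
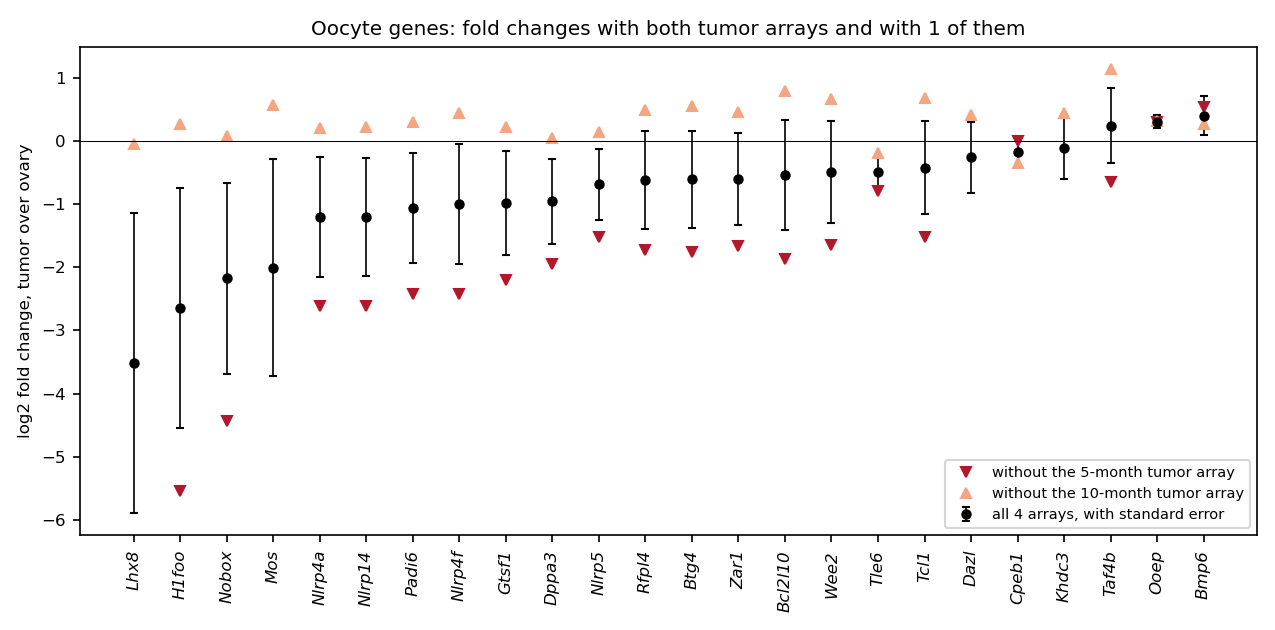
Limma estimates (log2 fold change, tumor against ovary) for the 24 oocyte genes with all 4 arrays (black, bars are standard errors), without the 5-month tumor array (dark red) and without the 10-month tumor array (light red). For most genes the estimate is below 0 without the 5-month tumor array and above 0 without the 10-month tumor array; Ooep, Bmp6, Tle6 and Cpeb1 stay closer together, and Khdc3, Dazl, Lhx8 and Mos did not pass the filter without the 5-month tumor array.

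Of the 30 genes, 4 had more than 1 probe set. Both probe sets of Dazl, of Gtsf1 and of Wee2 were above the median in the 5-month tumors and dim in the 10-month tumors. For Gtsf1 and Wee2, 1 of the 2 is of the class that can share probes with other sequences, and for Gtsf1 that is the brighter one used here. The third probe set of Taf4b was dim on every array, between 3.03 and 9.23.

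The upstream sequences of the oocyte genes were searched for the letters that the oocyte transcription factors are known to bind. FIGLA, SOHLH1 and SOHLH2 recognise E-boxes, CANNTG, and NOBOX recognises TAATTA and TAATTG. RefSeq's table of promoters (GRCm38.p6) held 29 starts of 25 of the 30 genes, and the 250 bases before each start were read on both strands. An E-box was present in 26 of the 29, or 89.7%, and in 66.2% of all 32851 promoters in the table. Its CAGCTG form, which every count of CANNTG includes, was in 20.7% against 13.0%, and CACGTG in 13.8% against 6.02%. A NOBOX motif was present in 3 of 29, those of Ooep, Wee2 and 1 of the starts of Nlrp5, or 10.3% against 11.3%. The sequences are shown for the 5 genes with the brightest ovary signal among those with a single listed start, of which Padi6, Btg4 and Zar1 were at least 2-fold lower in the 10-month than in the 5-month tumor pool and Ooep and Cpeb1 were not. They run 5′ to 3′ on the gene's strand and end at the base before the start, with E-boxes and NOBOX motifs in capitals. They lie at chr9:78378589-78378838 (Ooep, minus strand), chr4:140742644-140742893 (Padi6, minus strand), chr9:51115751-51116000 (Btg4, plus strand), chr5:72581085-72581334 (Zar1, minus strand) and chr7:81454759-81455008 (Cpeb1, minus strand).
Ooep: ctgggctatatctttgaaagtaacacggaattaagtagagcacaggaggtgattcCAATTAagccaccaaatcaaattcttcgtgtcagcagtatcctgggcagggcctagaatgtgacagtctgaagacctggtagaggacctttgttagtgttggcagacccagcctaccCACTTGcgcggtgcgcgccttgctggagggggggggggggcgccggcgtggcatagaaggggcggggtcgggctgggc
Padi6: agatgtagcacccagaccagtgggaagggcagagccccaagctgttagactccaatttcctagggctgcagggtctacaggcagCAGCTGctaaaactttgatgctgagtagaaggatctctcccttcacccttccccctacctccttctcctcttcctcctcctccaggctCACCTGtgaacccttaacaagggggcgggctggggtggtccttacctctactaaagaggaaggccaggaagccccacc
Btg4: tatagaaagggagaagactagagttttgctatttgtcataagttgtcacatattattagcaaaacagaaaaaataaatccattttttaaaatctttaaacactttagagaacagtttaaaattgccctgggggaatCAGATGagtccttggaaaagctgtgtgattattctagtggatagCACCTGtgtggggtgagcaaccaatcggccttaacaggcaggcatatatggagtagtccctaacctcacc
Zar1: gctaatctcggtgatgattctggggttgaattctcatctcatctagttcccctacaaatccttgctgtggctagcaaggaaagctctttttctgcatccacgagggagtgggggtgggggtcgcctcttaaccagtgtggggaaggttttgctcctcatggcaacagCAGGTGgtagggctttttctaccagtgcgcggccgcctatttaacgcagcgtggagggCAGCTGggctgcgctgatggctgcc
Cpeb1: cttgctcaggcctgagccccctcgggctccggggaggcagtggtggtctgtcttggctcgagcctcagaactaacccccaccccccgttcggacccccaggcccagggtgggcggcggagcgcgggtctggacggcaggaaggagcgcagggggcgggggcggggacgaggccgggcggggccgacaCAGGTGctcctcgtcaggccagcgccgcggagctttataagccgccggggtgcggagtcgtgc
The E-boxes in Padi6, Btg4 and Zar1 begin 166 and 78, 114 and 70, and 83 and 25 bases before the start. Those in Ooep and Cpeb1 begin 78 and 63 bases before it, and Ooep also has a NOBOX motif 195 bases before it. Whether the number of E-boxes goes with the signals was not tested. Of the 5 genes shown, the lower Padi6, Btg4 and Zar1 have 2 each, and Ooep and Cpeb1 have 1 each. Other genes differ from this: H1foo, Nlrp4f and Tcl1, at least 2-fold lower in the 10-month tumor pool, have 1 each. Bmp6, which was not lower, has 2. These matches describe the letters in this window and no binding was measured.

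Other genes of the oocyte were read from lists that hold none of the 35. Of 9 zona pellucida and oocyte-secreted genes tested, 0 passed the test over all genes in either direction. All 9 were at least 2-fold lower in the 10-month than in the 5-month tumor pool, against 3.39% of all genes tested. With dim signals raised to the median of their array it was 5 of the 10 on the array, against 1.47% of all named genes. Gdf9, an oocyte growth factor that granulosa cells respond to, had signals of 289 and 234 in control ovaries against 287 and 63.3 in the tumors. Of 18 other oocyte-abundant genes tested, 0 passed the test. In the 10-month tumor pool 10 of them were at least 2-fold lower than in the 5-month pool, against the same 3.39%. Another 2 were at least 2-fold higher, and the share of all genes that were was not taken. With dim signals raised in the same way, 9 of the 44 on the array were at least 2-fold lower, against 1.47% of all named genes. Obox2, an oocyte homeobox gene, had 199 and 141 in control ovaries against 277 and a dim 35.8 in the tumors. The gene with the highest ovary signal on this list, Spin1, which is also made outside the germ line, had 4546 and 4081 against 4126 and 4862.

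The cells around the oocyte were read on the same arrays. Granulosa and cumulus genes had a median log2 fold of -0.46 between the 10-month and the 5-month tumor pool, against -2.26 for the 24 oocyte genes and 0.01 for all genes tested. With dim signals raised to the median of their array, these medians were -0.43, -1.17 and 0.02. By limma 0 of 20 granulosa and cumulus genes were higher, 1 was lower, Nap1l5 (log2 fold change -0.92, adjusted p = 0.0422), with 19 that did not pass. The summed signal of the 22 genes on the array was 34781 and 32599 in control ovaries and 38617 and 36030 in the tumors. Those of the oocyte set were 3508 and 2801 against 3956 and 1523. Foxl2, the transcription factor that keeps granulosa identity, had 1429 and 1579 in control ovaries against 1714 and 2017, and Inha, the inhibin alpha gene, 8378 and 7198 against 10147 and 7506. Of the 20 tested, 4 were at least 2-fold lower in the 10-month than in the 5-month tumor pool, against 3.39% of all genes tested. The gene at least 2-fold higher there was Inhbb, an activin and inhibin subunit gene. Its signals were 2940 and 3101 in control ovaries against 871 and 2065 in the tumors, so both tumor pools were below both ovaries. The 4 genes lower in the 10-month tumor pool were Amh and Fshr, the hormone and the FSH receptor of growing follicles, Esr2 and the cumulus transporter gene Slc38a3. Amh had 120.4 and 69.2 in control ovaries against 75.1 and a dim 15.0, and Fshr 74.9 and 50.6 against 127 and 39.6. Slc38a3 had 118 and 143 in control ovaries against 334 and 62.7.

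Markers of other cells also differed between the tumor pools. The summed signal of 12 macrophage genes was 5405 and 5162 in control ovaries and 10997 and 20030 in the tumors, and that of 9 smooth muscle genes was 23592 and 27080 against 14555 and 6290. Of these 9, 7 were at least 2-fold lower in the 10-month than in the 5-month tumor pool, against 3.39% of all genes tested. With dim signals raised to the median of their array it was 6 of the 9. Their median log2 fold between the tumor pools was then -1.18, against -1.17 for the 24 oocyte genes. For 7 theca and Leydig type genes it was 30109 and 26823 against 28022 and 27315. All 12 macrophage, all 9 smooth muscle and 6 of 7 theca and Leydig type genes were above the median in the 5-month tumors, and 11, 8 and 7 in the 10-month tumors. Oviduct epithelium genes, 10 of 11 of them above the median in both ovary pools, summed to 14586 and 14445 in control ovaries against 4815 and 2155. The lower sum in the 10-month tumors was that of Ovgp1, at 4108 and 918, and the list had a median log2 fold of 0.48 between the tumor pools, with 3 genes at least 2-fold higher and 1 lower. The part of these cells in the difference of the oocyte genes was not tested. The housekeeping genes had a median log2 fold of -0.05 between the tumor pools.

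**Figure D4:**
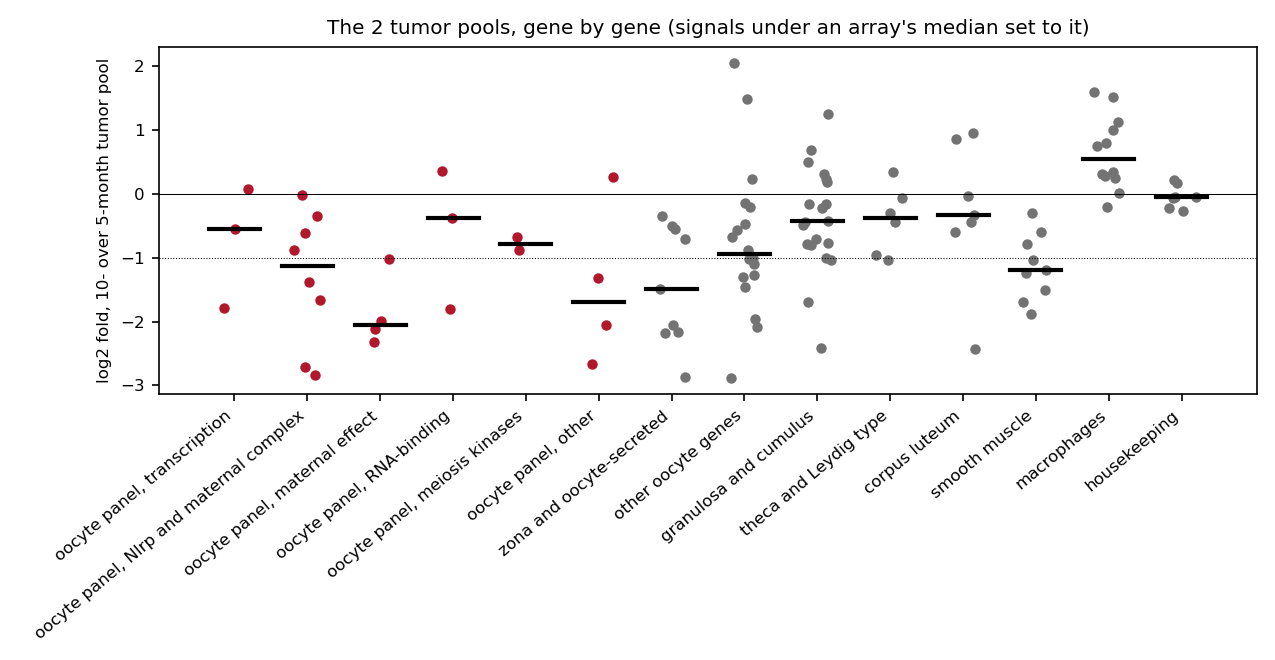
Log2 fold, 10-month over 5-month tumor pool, of the tested members of each gene group, with dim signals raised to the median of their array; each point is a gene, each bar the median, and the dotted line a 2-fold lower signal. The oocyte groups (red, and the zona and other oocyte lists) have medians from -0.37 to -2.05. Smooth muscle has a median of -1.18, the granulosa list -0.43, macrophages 0.55 and housekeeping genes -0.05.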

How the data were processed

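RNA of 4 pools was hybridised to Affymetrix mouse genome arrays. The authors deposited 1 signal intensity per probe set and array, made with the MAS5 algorithm in Affymetrix Expression Console 1.1 per the labels, on a linear scale. The trimmed mean, leaving out 2% at each end, was 150.0 on each array. Of 45101 probe sets, 34945 had 1 gene symbol in the platform annotation, 932 had several, 9160 were unnamed here and 64 were controls. Symbols were updated through RefSeq identifiers. For a gene with several probe sets, the brightest by mean log2 signal stood for it, and genes above the median on 2 or more arrays were tested.

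Log2 signals were fitted with limma 3.58.1 in R 4.3.3 (lmFit, eBayes with trend), tumor against ovary, 2 arrays each, with Benjamini-Hochberg adjustment over all 11740 genes, and genes were called at an adjusted p under 0.05. The pools of a genotype were the replicates and differ in age by their titles, so the spread includes age. The number of arrays limits the precision. The script was tested on simulated data. All 30 oocyte genes with a probe set are named, and other genes by list. The genes and lists were chosen with earlier results of these data known. Alternatives were quantile normalization, a pseudocount of 32, a floor at the median, other filters, the mean over probe sets, age as a block, no trend, the methods' t-test and leaving out each array. Plots used matplotlib 3.10.9 (Python 3.11.15).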

Additional observations from a re-analysis of the deposited data

Results flagged for a closer look

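Signals below the median of their array were first raised to that median. For 13 of the 24 oocyte genes tested the tumor was then on one side of the ovary at 5 months and on the other at 10 months. For 8 of them the folds at the ages also differed by at least 2-fold. The shares of all genes tested were not taken, so these counts do not set the oocyte genes apart. The values for these 8 are the log2 fold at 10 months minus that at 5 months, where any signal below the median of its array was raised to that median. They were -2.47 for Padi6, -2.15 for Bcl2l10, -1.84 for Btg4, -1.65 for Tcl1, -1.54 for Taf4b, -1.41 for Zar1 and -1.27 for Nlrp4f. For Bmp6 the value was 1.03, from a log2 fold of -0.12 at 5 months and 0.91 at 10 months. There was 1 array for each genotype and age, so the difference was not tested.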

How the results depend on the processing

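The count of oocyte genes called by limma was 0 in either direction with all 4 arrays. Leaving out each array in turn gave 0 to 16 lower and 0 to 2 higher, with 16 lower without the 5-month tumor array and 2 higher without the 10-month tumor array. The median log2 fold change of -0.61 ranged from -1.75 to 0.30 over these fits, and was -0.25 with signals under the median set to it and -0.41 with the pseudocount. The count of 20 genes at least 2-fold lower in the 10-month than in the 5-month tumor pool was 13 with signals under the median set to it, and 8 of 12 among genes above the median on all 4 arrays. For the latter, the share of all genes above the median on all 4 arrays was not taken. With no filter and that floor, chosen after seeing the data, it was 13 of 30. The count of 17 genes at least 2-fold lower in tumor than in ovary at 10 months was 9 with the floor, also chosen after seeing the data. With the floor the log2 fold change was 0.14 for Khdc3, 0.13 for Dazl, 0.17 for Mos and 0.22 for Wee2, and with the mean over probe sets it was -0.15 for Taf4b. Leaving out each array in turn gave log2 fold changes from -4.43 to 0.0801 for Nobox, -0.66 to 1.13 for Taf4b, -1.52 to 0.14 for Nlrp5, -0.21 to 0.43 for Khdc3, -2.42 to 0.29 for Padi6, -2.43 to 0.43 for Nlrp4f, -2.61 to 0.20 for Nlrp4a, -2.62 to 0.21 for Nlrp14, -1.95 to 0.0361 for Dppa3, -1.66 to 0.45 for Zar1 and -5.54 to 0.26 for H1foo. They were -1.77 to 0.55 for Btg4, -0.49 to 0.40 for Dazl, -0.36 to 0.0028 for Cpeb1, -2.20 to 0.22 for Gtsf1, -2.32 to 0.56 for Mos, -1.65 to 0.66 for Wee2, -1.52 to 0.67 for Tcl1, -1.88 to 0.79 for Bcl2l10 and -1.73 to 0.49 for Rfpl4. Without a change of sign they ran from -3.54 to -0.05 for Lhx8, -0.80 to -0.19 for Tle6, 0.25 to 0.35 for Ooep and 0.0129 to 0.78 for Bmp6. The cause was not tested. Quantile normalization, the pseudocount, no filter, the stricter filter, age as a block, no trend and the methods' t-test changed no direction and no call of an oocyte gene. Over all genes, 124 were lower and 84 higher, and 213 and 115 with the floor, 206 and 111 with the pseudocount, 55 and 30 with the mean over probe sets, 68 and 19 without the trend, 21 and 12 with age as a block and 0 and 0 by the methods' t-test after Benjamini-Hochberg adjustment, by which 1 of the 24 oocyte genes was under 0.05 unadjusted. Without an array they were 0 and 0 for either ovary, 1359 and 1097 without the 5-month tumor and 1093 and 707 without the 10-month tumor. The comparison of tumor pools could not be made without a tumor array. Signals near the background limit what can be read for the 12 genes at or under the median in the 10-month tumor.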

Other observations

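On the list of other oocyte-abundant genes, 2 had a higher signal in the 10-month than in the 5-month tumor pool by at least 2-fold. Kit, a receptor that oocytes share with mast cells and blood progenitors, had 315 and 229 in control ovaries and 199 and 558 in the tumors. Rec8, which encodes a meiotic cohesin subunit, had 44.9 and 19.4 in control ovaries and 59.1 and 245 in the tumors. By limma neither passed the test of tumor against ovary (adjusted p = 0.788 and 0.272).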
